A study of Mus musculus with 4 samples.

Results

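Timd4 positive Kupffer cells are resident macrophages of the liver sinusoids that carry the phosphatidylserine receptor TIM-4. They were followed here across 3 single-cell RNA sequencing libraries of mouse liver non-parenchymal cells. A cell was a member if it held at least 2 UMIs (unique molecular identifiers, the tags by which captured transcripts are counted) of Clec4f, at least 1 each of Vsig4, Csf1r and Timd4, none of Cd3e or Cd79a and at most 1 of Ptprb. Before that rule, cells had to hold a minimum of 2000 UMIs and of 300 genes, with mitochondrial genes giving under 15% of the UMIs. The rule found 1868 members among 27934 filtered cells, 357 in HFD_EXE, 249 in HFD_sed and 1262 in S. Transcript counts of these genes chose the members, so their levels are given as a description only. Cells that met every other part of the rule but held no Timd4 UMI numbered 400 and are called Timd4 negative Kupffer cells.

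The mice were C57BL/6J animals aged 30 weeks, and no genotype other than the strain is named. The group names HFD_EXE, HFD_sed and S come from the library titles, which do not spell out the letters. HFD is the high fat diet named in the study's design, EXE and sed are read as with and without exercise, and S is the group whose title names no HFD. The fourth group, E, was not analysed here. Each group was 1 library from dissociated fresh liver, with red blood cells lysed and dead cells removed, and nothing says whether a library came from 1 mouse or a pool. A library is therefore at once a mouse or a pool of mice, a dissociation and a capture, and these cannot be told apart from the diet or the exercise. No difference between groups could be tested. Such differences are given as log2 ratios with 95% intervals that cover counting error only.

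Kupffer cells are seeded before birth, renew themselves in place, and clear bacteria, aged red blood cells and dying cells from portal blood. The C-type lectin Clec4f and the complement receptor Vsig4 mark them in the mouse, and TIM-4, the product of Timd4, binds the phosphatidylserine that dying cells expose. TIM-4 is gained slowly, so that macrophages newly derived from monocytes can carry Clec4f while still lacking it. In fatty liver the resident cells can be lost and monocyte-derived cells can fill the niche, some of them with a lipid-associated programme of Trem2, Gpnmb, Spp1 and Cd9.

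The matrices held 11280 barcodes in HFD_EXE, 11752 in HFD_sed and 11660 in S, more than the 5000 to 6000 captured cells per sample that the labels state, with 60901242, 63456399 and 84666844 UMIs in that order of libraries. The filter kept 8866, 9500 and 9568 cells. Members had a median of 5304 UMIs in HFD_EXE, 6698 in HFD_sed and 10008.5 in S, and their summed counts were 2199928, 1829022 and 13401489 UMIs. Levels below are members' counts divided by these sums, on the usual CPM scale. Pairs of libraries shared 30 to 43 barcodes, and no member barcode was shared.

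Genes that the rule did not use gave the members the profile of Kupffer cells in each library. Cd5l, a secreted scavenger protein of resident macrophages, was at 6726 CPM (interval 6618 to 6835) in HFD_EXE, 6637 CPM (interval 6519.9 to 6757) in HFD_sed and 6840.1 CPM (interval 6796 to 6885) in S. In T-like cells, chosen by Cd3e and expected to lack Cd5l, it was at 45.6 CPM in HFD_EXE, 46.2 CPM in HFD_sed and 83.1 CPM in S. C1qa, a chain of complement C1q, was at 5378 CPM in HFD_EXE, 4952 CPM in HFD_sed and 5105 CPM in S. The ratios of both genes lay under 1.5-fold in each comparison of libraries.

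Transcripts of other cell types were also counted in members, and their sums moved with the libraries. The 22 hepatocyte markers summed to 2076 CPM in HFD_EXE, 1178 CPM in HFD_sed and 3938 CPM in S, and the erythroid markers to 908 CPM in HFD_EXE, 76 CPM in HFD_sed and 48.3 CPM in S. The sinusoidal endothelial markers summed to 1312 CPM in HFD_EXE, 578 CPM in HFD_sed and 692 CPM in S, and the neutrophil markers to 327 CPM in HFD_EXE, 894 CPM in HFD_sed and 523 CPM in S. The markers of capsule-like macrophages, a population with Cx3cr1, Cd207, Mmp12 and Mmp13, summed to 279 CPM in HFD_EXE, 823 CPM in HFD_sed and 291 CPM in S. Each hepatocyte, endothelial and capsule-like marker was detected in each library, as were 8 of 10 neutrophil markers in HFD_EXE, 10 in HFD_sed and 9 in S, and 7 of 7 erythroid markers in HFD_EXE, 6 in HFD_sed and 6 in S. Hepatocyte, endothelial and erythroid sums were thus higher in HFD_EXE than in HFD_sed, and neutrophil and capsule sums lower. The neutrophil sum did not follow the median member, whose share of neutrophil UMIs was 0.0311% in HFD_EXE, 0.0135% in HFD_sed and 0.0134% in S. Members with over 0.5% neutrophil UMIs numbered 0 in HFD_EXE, 3 in HFD_sed (at most 9.13%) and 11 in S (at most 22.6%). Markers of other cells also differed. The T cell markers summed to 32.3 CPM in HFD_EXE, 92.9 CPM in HFD_sed and 25.8 CPM in S, with 0 higher and 4 lower of 7 measured in HFD_EXE against HFD_sed, and 9 higher and 0 lower of 10 in HFD_sed against S. The monocyte markers summed to 414 CPM in HFD_EXE, 231 CPM in HFD_sed and 419 CPM in S, with 1 higher and 5 lower of 8 in HFD_EXE against HFD_sed, and 6 higher and 1 lower of 9 in HFD_sed against S. The sum and the count thus ran in opposite directions for monocyte markers. Of that sum, Plac8 alone gave 345 CPM in HFD_EXE, 95.1 CPM in HFD_sed and 362 CPM in S. In HFD_sed against S, B cell markers gave 5 higher and 0 lower of 7, and stellate cell markers 0 higher and 5 lower of 8. S held 13 members with over 1% hepatocyte UMIs (at most 21.4%), while the highest share was 0.722% in HFD_EXE and 0.602% in HFD_sed. The part of these transcripts in the results was not tested, and genes of these marker lists are named as such below.

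Members made up 4.03% (3.63 to 4.46) of the filtered cells of HFD_EXE, 2.62% (2.31 to 2.96) of HFD_sed and 13.2% (12.5 to 13.9) of S, with exact Clopper-Pearson 95% intervals. Among gated Kupffer cells, that is the members and the Timd4 negative cells together, the Timd4 positive share was 82.1% (78.1 to 85.6) in HFD_EXE, 61.3% (56.4 to 66.1) in HFD_sed and 88.4% (86.7 to 90.1) in S. HFD_sed had the lowest share. A Timd4 UMI is found more often in a deeper cell, and with each cell thinned to 2000 UMIs the shares were 57.5% (52.7 to 62.2), 41.1% (36.3 to 46.1) and 62.5% (59.9 to 65) in the same order of libraries. Among gated cells of at least 5000 UMIs they were 93.9%, 62.5% and 93.8%. HFD_sed was lowest in each of these counts, and at 5000 UMIs HFD_EXE and S lay within each other's intervals.

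Timd4 UMIs were also found in cells that are not known to make it. T-like cells with a Timd4 UMI were 1.31% in HFD_EXE, 0.840% in HFD_sed and 6.92% in S, at median depths of 5781.5, 3772 and 6347 UMIs. These shares lie far below those of the gated Kupffer cells, and the source of these UMIs was not tested. Members held a median of 3 Timd4 UMIs in HFD_EXE, 3 in HFD_sed and 5 in S. Just outside the Timd4 threshold, at 0 UMIs, lay 78 cells in HFD_EXE, 157 in HFD_sed and 165 in S, and just inside, at 1 UMI, lay 96, 56 and 141. Of these, cells at 1 UMI had Cd5l at 5845 CPM in HFD_EXE, 5852 CPM in HFD_sed and 4538 CPM in S, and cells at 0 UMIs at 5411 CPM, 4544 CPM and 2006 CPM. Among cells with a Timd4 UMI, the Clec4f threshold decided few. There were 0 cells at 2 UMIs and 1 at 1 UMI in HFD_EXE, 1 and 1 in HFD_sed, and 6 and 3 in S. Raising it took a larger part of the Timd4 negative cells than of members. At 4 or more Clec4f UMIs, members were 354 of 424 gated cells in HFD_EXE, 247 of 387 in HFD_sed and 1251 of 1365 in S. As counted they were 357 of 435, 249 of 406 and 1262 of 1427. The comparison of Timd4 positive with Timd4 negative cells was not repeated at that minimum.

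**Figure D1:**
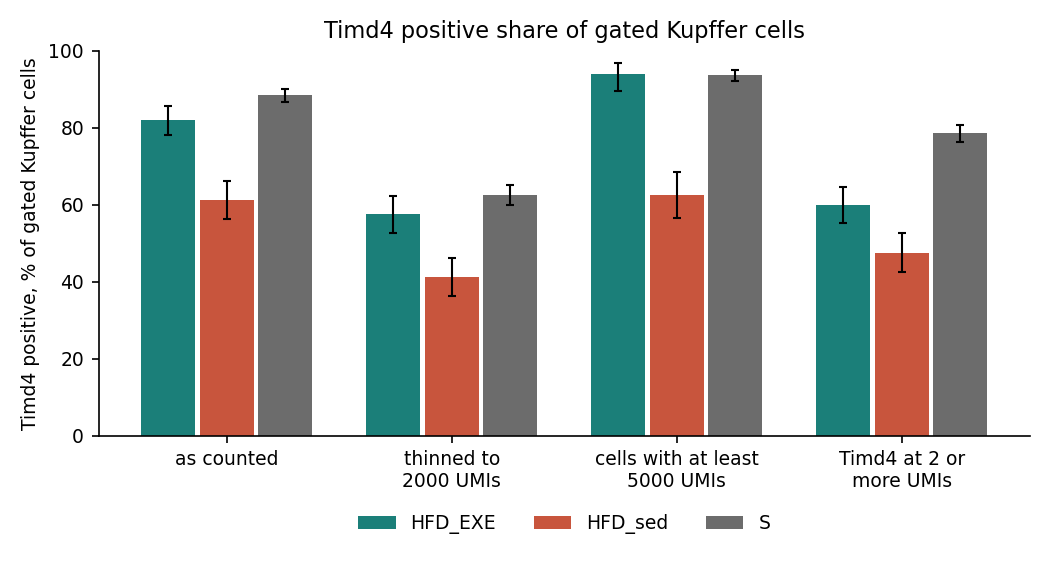
Timd4 positive cells as a percentage of gated Kupffer cells (vertical axis) in HFD_EXE, HFD_sed and S, as counted and under 3 other ways of counting; bars are the shares of 1 library each and lines the exact 95% binomial intervals. HFD_sed is lowest in each group of bars, at 61.3% as counted against 82.1% in HFD_EXE and 88.4% in S.

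The median ratios of the Kupffer identity genes lay near 0 between the 3 libraries, while single genes stood apart. A gene was called higher or lower where its UMIs over both libraries numbered at least 20, the ratio was at least 1.5-fold and its interval excluded 1. Of 21 measured identity genes outside the rule, 3 were higher and 3 lower in HFD_EXE than in HFD_sed (median log2 ratio 0.11), where 7.95% of all 9793 measured genes were higher and 6.35% lower. Both shares of the identity list were above those of all genes. In HFD_sed against S, 1 identity gene was higher and 3 lower (median −0.06), where 6.7% of all 12636 measured genes were higher and 7.64% lower. In HFD_EXE against S, 2 were higher and 2 lower (median −0.10), where 8.67% of all 12675 genes were higher and 9.34% lower. Over all measured genes the median log2 ratio lay between −0.03 and 0.01 in the 3 comparisons. The comparisons share libraries, so the same library can stand behind calls in 2 of them.

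The scavenger receptor gene Marco, whose product binds bacteria and oxidised lipids, stood at 658 CPM (interval 624 to 693) in HFD_EXE, 1772 CPM (interval 1712 to 1834) in HFD_sed and 772 CPM (interval 757 to 787) in S. HFD_sed was the high library, with log2 ratios of −1.43 (95% interval −1.52 to −1.34) for HFD_EXE over HFD_sed and 1.20 (95% interval 1.14 to 1.26) for HFD_sed over S. A Marco UMI was held by 52.7% of members in HFD_EXE, 79.5% of members in HFD_sed and 73.5% of members in S, and by 2.84%, 7.49% and 14.8% of the T-like cells of the same libraries. Cd163, the receptor for haemoglobin bound to haptoglobin, went the other way between the same libraries, at 1124 CPM (interval 1079.8 to 1169) in HFD_EXE, 665 CPM (interval 628 to 703) in HFD_sed and 1383 CPM (interval 1363 to 1403) in S. Its log2 ratios were 0.76 (95% interval 0.66 to 0.86) for HFD_EXE over HFD_sed and −1.06 (95% interval −1.14 to −0.97) for HFD_sed over S. Fcna, a ficolin of the lectin pathway of complement, was at 1966 CPM in HFD_EXE, 1089 CPM in HFD_sed and 1954 CPM in S, and so was likewise low in HFD_sed. HFD_EXE and S lay close together for Marco, Cd163 and Fcna, with log2 ratios of −0.23, −0.30 and 0.01, none of them past the fold.

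Other identity genes had HFD_EXE apart from the rest. Slc40a1, the iron exporter ferroportin through which macrophages return iron from red blood cells, was at 2509 CPM in HFD_EXE, 4253 CPM in HFD_sed and 3839 CPM in S, lower in HFD_EXE than in HFD_sed with a log2 ratio of −0.76 (95% interval −0.81 to −0.71). Vcam1, an adhesion molecule, was at 1636 CPM in HFD_EXE, 936 CPM in HFD_sed and 792 CPM in S and higher in HFD_EXE than in both other libraries (log2 ratios 0.81 and 1.05). Of the genes the rule used, Timd4 was at 583 CPM in HFD_EXE, 509 CPM in HFD_sed and 632 CPM in S, Clec4f at 4519 CPM in HFD_EXE, 4209.9 CPM in HFD_sed and 5195 CPM in S and Vsig4 at 2541 CPM in HFD_EXE, 2214 CPM in HFD_sed and 3062 CPM in S.

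The transcription factors and niche signals of Kupffer cells were lower in part of their number in HFD_EXE. Of 22 measured genes, 0 were higher and 6 lower in HFD_EXE than in HFD_sed (median log2 ratio −0.33), and 1 was higher and 7 lower in HFD_EXE than in S (median −0.21). HFD_sed against S gave 4 higher and 1 lower (median 0.07). Id3, an inhibitor of helix-loop-helix factors that Kupffer cells need, was at 341 CPM (interval 317 to 366) in HFD_EXE, 724 CPM (interval 685 to 764) in HFD_sed and 883 CPM (interval 867 to 899) in S. HFD_EXE was the low library, with a log2 ratio of −1.09 (95% interval −1.22 to −0.96) over HFD_sed and −1.37 (95% interval −1.48 to −1.27) over S. Zeb2, a repressor that upholds tissue macrophage identity, was at 493 CPM in HFD_EXE, 815 CPM in HFD_sed and 1071 CPM in S. Zeb2, like Id3, was lowest in HFD_EXE, with a log2 ratio over HFD_sed of −0.72. Nr1h3, the oxysterol receptor LXR alpha on which Kupffer identity rests, was at 580.0 CPM in HFD_EXE, 756 CPM in HFD_sed and 568 CPM in S and passed the fold in no comparison. Cebpb was at 1696 CPM in HFD_EXE, 1276 CPM in HFD_sed and 820.4 CPM in S, higher than S in both HFD libraries, and Spic, a factor of iron-recycling macrophages, was highest in HFD_sed at 196 CPM in HFD_EXE, 313 CPM in HFD_sed and 176 CPM in S.

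Receptors and bridging molecules for dying cells, the family to which TIM-4 belongs, were mostly higher in HFD_EXE than in HFD_sed where they passed the fold. Of 15 measured genes besides Timd4, 5 were higher and 1 lower (median log2 ratio 0.39). HFD_sed against S gave 3 higher and 1 lower of 16 (median −0.12), and HFD_EXE against S gave 3 higher and 0 lower of 16 (median 0.25). Havcr2, which encodes the related phosphatidylserine receptor TIM-3, was at 58.6 CPM (interval 49 to 69.7) in HFD_EXE, 13.7 CPM (interval 8.85 to 20.2) in HFD_sed and 5.37 CPM (interval 4.20 to 6.77) in S. Its order was HFD_EXE, HFD_sed, S, with a log2 ratio of 2.10 (95% interval 1.47 to 2.78) for HFD_EXE over HFD_sed and 3.45 (95% interval 3.02 to 3.88) for HFD_EXE over S. A Havcr2 UMI was held by 26.3% of members in HFD_EXE, 9.24% of members in HFD_sed and 4.04% of members in S. Cd300lf, another phosphatidylserine receptor, was at 239 CPM in HFD_EXE, 88 CPM in HFD_sed and 112 CPM in S, and Gas6, which bridges phosphatidylserine to the TAM receptors, at 26.4 CPM in HFD_EXE, 11.5 CPM in HFD_sed and 25 CPM in S. The TAM receptors themselves did not pass the fold, Mertk being at 441 CPM in HFD_EXE, 474 CPM in HFD_sed and 519 CPM in S and Axl at 809 CPM in HFD_EXE, 739.7 CPM in HFD_sed and 691 CPM in S. Elmo1, an adaptor of engulfment, was the gene lower in HFD_EXE than in HFD_sed, at 61.4 CPM in HFD_EXE and 95.7 CPM in HFD_sed. Stab1, among the 5 higher genes, was at 179 CPM in HFD_EXE, 101 CPM in HFD_sed and 120 CPM in S. In HFD_EXE against HFD_sed, 9 of 11 sinusoidal endothelial markers were also higher in members and 0 lower. The part of endothelial transcripts in this list was not tested.

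In the comparison of HFD_EXE with HFD_sed, which differ in exercise as the titles are read and also in library, 779 genes were higher and 622 lower. The naming rule took the 8 genes per direction whose interval lay farthest from no change, among genes of at least 50 CPM in the higher library that were no lower in members than in the library's other cells. Higher in HFD_EXE was Cytip, a cytohesin-binding protein of leukocyte adhesion, at 626 CPM (interval 593 to 659.9) in HFD_EXE, 109 CPM (interval 94.2 to 125) in HFD_sed and 39.2 CPM (interval 35.9 to 42.7) in S. A Cytip UMI was held by 87.4% of members in HFD_EXE, 41% of members in HFD_sed and 25.6% of members in S, and with each member thinned to 2000 UMIs by 65.8% in HFD_EXE, 18.5% in HFD_sed and 6.97% in S. Endothelial-like cells had Cytip at 25.1 CPM in HFD_EXE, 25.9 CPM in HFD_sed and 9.85 CPM in S. The log2 ratio in members was 2.52 (95% interval 2.31 to 2.75). Ddit4, an inhibitor of mTOR complex 1 signalling, was at 145 CPM in HFD_EXE, 25.7 CPM in HFD_sed and 9.33 CPM in S, and the leptin receptor gene Lepr at 179 CPM in HFD_EXE, 34.4 CPM in HFD_sed and 62.6 CPM in S. Their log2 ratios were 2.50 (95% interval 2.06 to 2.97) and 2.37 (95% interval 1.99 to 2.78). Gpt2, a mitochondrial alanine aminotransferase, was at 128 CPM in HFD_EXE, 23.5 CPM in HFD_sed and 15.3 CPM in S, and Fkbp5, a co-chaperone of the glucocorticoid receptor, at 225 CPM in HFD_EXE, 47 CPM in HFD_sed and 45.1 CPM in S. The others were the ubiquitin ligase gene Rnf169, at 101 CPM in HFD_EXE and 19.1 CPM in HFD_sed, the serum response factor coactivator gene Mrtfa, at 109.5 CPM in HFD_EXE and 22.4 CPM in HFD_sed, and Fbxo32, the ubiquitin ligase subunit atrogin-1, at 143 CPM in HFD_EXE and 31.7 CPM in HFD_sed. Each of these genes was lower in S than in HFD_EXE.

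Among the genes that the rule named as lower in HFD_EXE than in HFD_sed was Il1b, the cytokine interleukin 1 beta. It was at 350.0 CPM (interval 326 to 376) in HFD_EXE, 1126 CPM (interval 1078 to 1176) in HFD_sed and 621 CPM (interval 608 to 634) in S, and its log2 ratio was −1.69 (95% interval −1.81 to −1.57). A UMI of it was held by 65% of members in HFD_EXE, 88.8% of members in HFD_sed and 82.6% of members in S, and by 13.1%, 18.1% and 11.4% of the T-like cells of the same libraries. The B cell chemoattractant gene Cxcl13 was at 199 CPM in HFD_EXE, 809 CPM in HFD_sed and 673 CPM in S, and the chemokine gene Ccl3 at 56.8 CPM in HFD_EXE, 239 CPM in HFD_sed and 136 CPM in S. Cxcl13 was held by 30% of members in HFD_EXE, 53.4% of members in HFD_sed and 64.8% of members in S, and here HFD_sed and S lay together above HFD_EXE. After thinning, its shares were 17.1%, 38.2% and 40.3% in the same order of libraries. Asb2, a substrate receptor of a ubiquitin ligase, was found in 4 members of HFD_EXE, at 1.82 CPM in HFD_EXE, 68.3 CPM in HFD_sed and 20.3 CPM in S. Irak3, a brake on Toll-like receptor signalling, was at 11.4 CPM in HFD_EXE, 72.2 CPM in HFD_sed and 25.9 CPM in S, and the glutamate transporter gene Slc1a2 at 9.55 CPM in HFD_EXE, 60.7 CPM in HFD_sed and 56 CPM in S. Ms4a7, a membrane protein of macrophages that is also on the capsule-like marker list, was at 35.5 CPM in HFD_EXE, 137 CPM in HFD_sed and 30.6 CPM in S, and Mmp12, macrophage elastase, of the same list, at 50 CPM in HFD_EXE, 446 CPM in HFD_sed and 20.3 CPM in S.

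**Figure D2:**
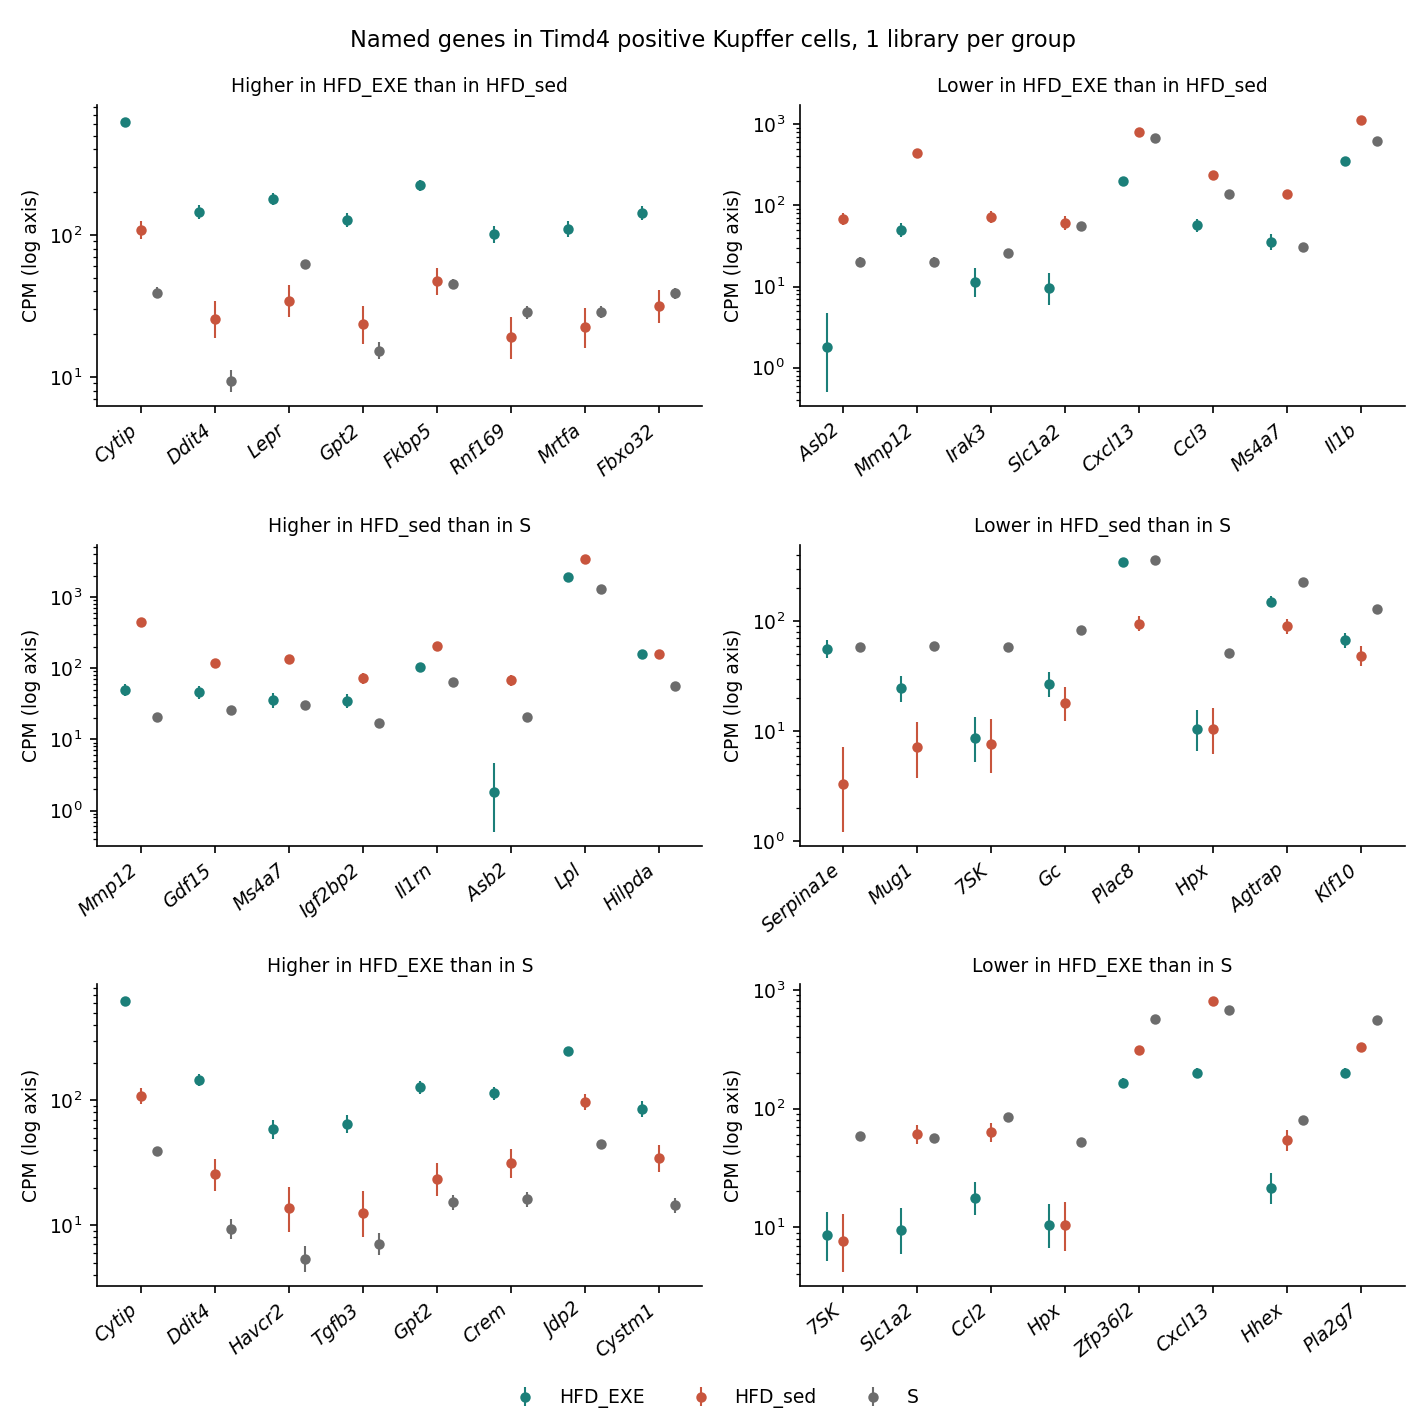
Summed levels in Timd4 positive Kupffer cells, in CPM on a log axis, of the 8 genes the naming rule took per comparison and direction, for HFD_EXE, HFD_sed and S; points are 1 library each and lines exact Poisson 95% intervals of counting error. Cytip stands at 626 CPM in HFD_EXE, above 109 CPM in HFD_sed and 39.2 CPM in S, and Mmp12 is highest in HFD_sed.

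Inflammatory cytokines and chemokines had the lowest median of the 27 pathway lists in HFD_EXE against HFD_sed. Of 18 measured genes 2 were higher and 11 lower (median log2 ratio −1.49). HFD_sed against S gave 8 higher and 1 lower of 19 (median 0.54), and HFD_EXE against S gave 4 higher and 9 lower of 19 (median −0.12). The interferon-induced chemokine genes Cxcl9 and Cxcl10 were at 96.4 CPM in HFD_EXE, 393 CPM in HFD_sed and 45.8 CPM in S and at 31.8 CPM in HFD_EXE, 163 CPM in HFD_sed and 71.3 CPM in S. Cxcl9 was held by few cells, and the cells richest in it that together held 50% of its UMIs were 1 member of HFD_EXE, 3 of HFD_sed and 4 of S. For Cxcl10 they were 3 members of HFD_EXE, 3 of HFD_sed and 22 of S. Ptgs2, the inducible cyclooxygenase, was at 1.82 CPM in HFD_EXE, 18.6 CPM in HFD_sed and 7.16 CPM in S. Against the median, Ccl6 was at 2082 CPM in HFD_EXE, 892 CPM in HFD_sed and 1388 CPM in S and Il6 at 47.7 CPM in HFD_EXE, 27.9 CPM in HFD_sed and 28.3 CPM in S, both higher in HFD_EXE than in HFD_sed. Without the members that held a UMI of Cx3cr1, Ccr2, Mmp12 or Mmp13, a choice made after the data had been seen, the list median was −0.70 in HFD_EXE against HFD_sed and 0.33 in HFD_sed against S.

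Glucocorticoid targets were higher in HFD_EXE than in both other libraries. Of 12 measured genes 7 were higher and 0 lower than in HFD_sed (median log2 ratio 0.74), and 8 were higher and 1 lower than in S (median 0.87). HFD_sed against S gave 2 higher and 3 lower (median −0.01). Fkbp5 had 225 CPM (interval 205 to 245) in HFD_EXE, 47 CPM (interval 37.6 to 58.1) in HFD_sed and 45.1 CPM (interval 41.6 to 48.9) in S, with a log2 ratio of 2.26 (95% interval 1.92 to 2.60) for HFD_EXE over HFD_sed. The transcription factor gene Klf9 was at 316 CPM in HFD_EXE, 73.3 CPM in HFD_sed and 83.7 CPM in S, and the metallothionein genes Mt2 and Mt1 at 95 CPM in HFD_EXE, 12 CPM in HFD_sed and 32.5 CPM in S and at 564 CPM in HFD_EXE, 237 CPM in HFD_sed and 309 CPM in S. A Klf9 UMI was held by 74.2% of members in HFD_EXE, 34.9% of members in HFD_sed and 45.2% of members in S. The higher level was not restricted to members. Fkbp5 was at 88.5 CPM in HFD_EXE, 39.1 CPM in HFD_sed and 35.6 CPM in S in T-like cells, and at 174 CPM in HFD_EXE, 65.8 CPM in HFD_sed and 42.9 CPM in S in endothelial-like cells. Klf9 reached 962 CPM in HFD_EXE, 279 CPM in HFD_sed and 334 CPM in S in endothelial-like cells, so it was higher there than in members, and the endothelial marker sum was also higher in members of HFD_EXE; its part in this result was not tested. For Cytip the T-like cells showed another pattern, at 319 CPM in HFD_EXE, 318 CPM in HFD_sed and 241 CPM in S. Gpt2 in T-like cells was at 7.43 CPM in HFD_EXE, 1.57 CPM in HFD_sed and 5.94 CPM in S. It was thus higher in HFD_EXE than in HFD_sed there too, at levels far below those of members, while S lay near HFD_EXE.

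In HFD_sed against S, which differ in diet as the titles are read and also in library, 847 genes were higher and 966 lower. Lipoprotein lipase, Lpl, which releases fatty acids from lipoproteins, was at 1878 CPM (interval 1821 to 1936) in HFD_EXE, 3410.0 CPM (interval 3326 to 3496) in HFD_sed and 1277 CPM (interval 1258 to 1297) in S, and a UMI of it was held by 96.4% of members in HFD_EXE, 99.2% of members in HFD_sed and 96% of members in S. It was thus found in nearly all members, against 9.45 CPM in HFD_EXE, 16 CPM in HFD_sed and 14.4 CPM in S in T-like cells, with a log2 ratio of 1.42 (95% interval 1.37 to 1.46) for HFD_sed over S. Gdf15, a stress-induced cytokine, was at 45.9 CPM in HFD_EXE, 118 CPM in HFD_sed and 25.9 CPM in S, and Il1rn, the interleukin 1 receptor antagonist, at 103 CPM in HFD_EXE, 203 CPM in HFD_sed and 64.5 CPM in S. Hilpda, which inhibits triglyceride lipase and promotes lipid droplets, was at 156 CPM in HFD_EXE, 159 CPM in HFD_sed and 56 CPM in S, so HFD_EXE and HFD_sed lay together above S. Igf2bp2, an RNA-binding protein, was at 34.5 CPM in HFD_EXE, 72.2 CPM in HFD_sed and 17.2 CPM in S. Mmp12, Ms4a7 and Asb2, given above, completed the genes named as higher in HFD_sed, with log2 ratios over S of 4.46 (95% interval 4.26 to 4.66), 2.16 (95% interval 1.93 to 2.39) and 1.75 (95% interval 1.43 to 2.06).

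Among the genes named as lower in HFD_sed than in S, Serpina1e was at 3.28 CPM in HFD_sed and 57.6 CPM in S, Mug1 at 7.11 CPM in HFD_sed and 59.4 CPM in S, Gc at 18 CPM in HFD_sed and 83.9 CPM in S and Hpx at 10.4 CPM in HFD_sed and 51.9 CPM in S. All 4 encode plasma proteins that hepatocytes secrete, and the hepatocyte marker sum was lower in members of HFD_sed as well, with 21 of 22 markers lower and 1 higher. The small nuclear RNA 7SK was at 7.65 CPM in HFD_sed and 58.7 CPM in S, and 695 of its 787 UMIs in S lay in 1 cell. With the 5% of members richest in a gene left out, 7SK lost its calls, and the other genes that the naming rule took kept theirs. For Mmp12 the richest 5% held 91.0% of the UMIs in HFD_sed and 100% in S. Its kept call in HFD_sed against S was thus set against no UMIs in S, and it says little about the other members. The genes named outside hepatocyte secretion were Plac8, at 345 CPM in HFD_EXE, 95.1 CPM in HFD_sed and 362 CPM in S, Agtrap, an angiotensin receptor-associated protein, at 90.2 CPM in HFD_sed and 229 CPM in S, and Klf10, a factor induced by transforming growth factor beta, at 48.7 CPM in HFD_sed and 129 CPM in S. For Plac8, which is also on the monocyte marker list, HFD_EXE and S lay together above HFD_sed.

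Lipid-associated macrophage genes had a median log2 ratio of 1.09 in HFD_sed against S, with 10 of 19 higher and 0 lower. HFD_EXE against S gave 7 higher and 0 lower of 17 (median 0.31), and HFD_EXE against HFD_sed 1 higher and 8 lower of 18 (median −0.27). In the median member the list's share of UMIs lay close together, at 3.06% in HFD_EXE, 3.11% in HFD_sed and 3.14% in S. A share of that size follows the most abundant genes of the list. It cannot show differences in genes at levels as low as those given below. Trem2, the lipid-sensing receptor for which such cells are known, was at 85.5 CPM in HFD_EXE, 77.1 CPM in HFD_sed and 36.3 CPM in S. Both HFD libraries lay above S, with log2 ratios of 1.09 (95% interval 0.81 to 1.36) for HFD_sed and 1.24 (95% interval 0.99 to 1.48) for HFD_EXE. The tetraspanin genes Cd9 and Cd63 were at 23.6 CPM in HFD_EXE, 61.8 CPM in HFD_sed and 10.7 CPM in S and at 4.55 CPM in HFD_EXE, 66.7 CPM in HFD_sed and 4.03 CPM in S. Gpnmb was at 1.36 CPM in HFD_EXE, 18.6 CPM in HFD_sed and 0.373 CPM in S, and in HFD_sed 18 of its 34 UMIs were in 1 of the 9 members that held it. The fatty acid-binding protein genes Fabp5 and Fabp4 were at 24.5 CPM in HFD_EXE, 38.3 CPM in HFD_sed and 9.55 CPM in S and at 69.1 CPM in HFD_EXE, 113 CPM in HFD_sed and 11.3 CPM in S. Without the members holding a UMI of Cx3cr1, Ccr2, Mmp12 or Mmp13, the median of HFD_sed against S was 0.52, less than the value over all members.

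Genes of recently recruited macrophages differed between the same libraries. Of 14 measured genes 10 were higher and 1 lower in HFD_sed than in S (median 1.11), and of 13 measured genes 1 was higher and 9 lower in HFD_EXE than in HFD_sed (median −1.09). S100a4 was at 6.36 CPM in HFD_EXE, 27.9 CPM in HFD_sed and 3.58 CPM in S, and the integrin gene Itgax at 2.27 CPM in HFD_EXE, 26.8 CPM in HFD_sed and 6.34 CPM in S. These levels are low beside those of Kupffer genes. Members with a UMI of Cx3cr1, Ccr2, Mmp12 or Mmp13 were 15.1% in HFD_EXE, 28.1% in HFD_sed and 11.6% in S. These genes are partly on the list themselves. Without such members the medians were 1.07 for HFD_sed against S and −0.75 for HFD_EXE against HFD_sed. The capsule-like and T cell marker sums were also highest in HFD_sed, and more monocyte markers were higher than lower there, and their part was not tested.

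**Figure D3:**
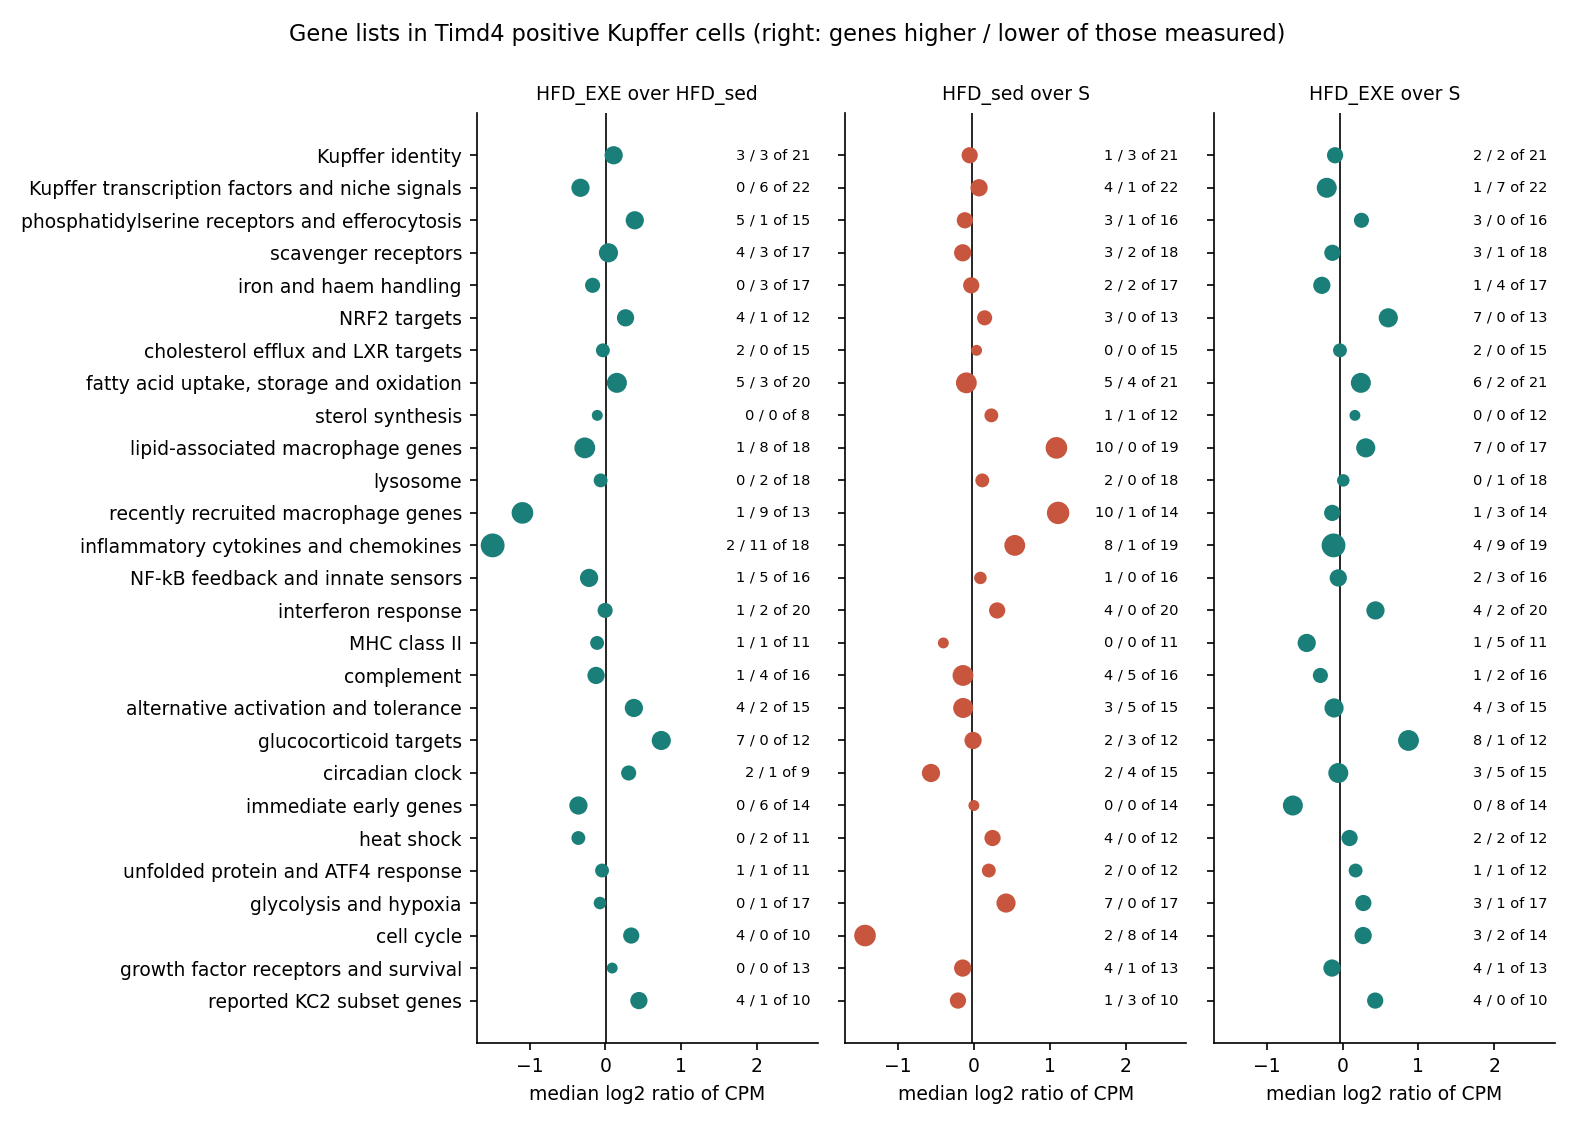
Median log2 ratio of CPM in Timd4 positive Kupffer cells (horizontal axis) for 27 gene lists (rows) in the 3 comparisons; a dot is larger the more genes were called, the line marks the median of all measured genes, and the figures at the right count genes higher and lower. Inflammatory genes lie at −1.49 for HFD_EXE over HFD_sed, and lipid-associated macrophage genes at 1.09 for HFD_sed over S.

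The UMIs of some of these genes came from very few members, while others were carried by most. Mmp12 was found in 31 members of HFD_EXE, 37 of HFD_sed and 51 of S, and its 10 richest members held 78.2%, 86.5% and 78.3% of its UMIs. The Spp1 level of HFD_sed, 99.5 CPM against 8.64 CPM in HFD_EXE and 3.95 CPM in S, rested on 1 cell with 148 of 182 UMIs. Such a level describes a few cells of the library. Marco lay between these extremes, with 50% of its UMIs in the 20 richest members of HFD_EXE, 23 of HFD_sed and 101 of S. Il1b and Lpl were broadly held, as given above. The erythroid sum of HFD_EXE also came in part from single cells; 185 of 218 Hbb-bt UMIs lay in 1 member.

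**Figure D4:**
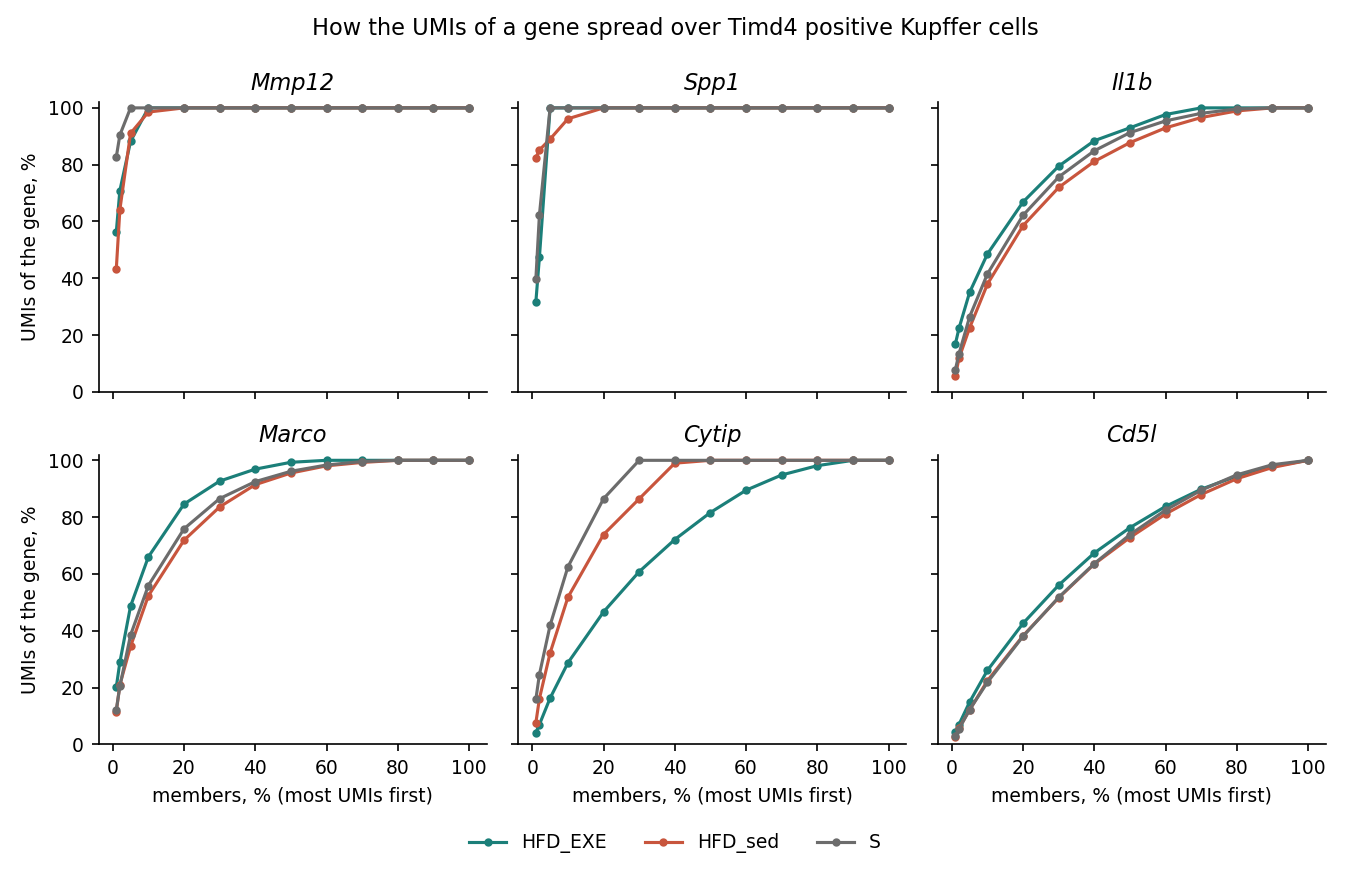
Cumulative percentage of a gene's UMIs (vertical axis) held by members ranked from the most UMIs of that gene to the fewest (horizontal axis, percentage of members), for 6 genes in HFD_EXE, HFD_sed and S. Mmp12 and Spp1 climb within a small share of members in each library, Cd5l climbs slowly in all 3, and Cytip climbs more slowly in HFD_EXE than in HFD_sed or S.

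Against S, HFD_EXE had 1099 genes higher and 1184 lower. Besides Cytip, Ddit4, Gpt2 and Havcr2, the rule named the growth factor gene Tgfb3, at 65 CPM in HFD_EXE, 12.6 CPM in HFD_sed and 7.09 CPM in S, Crem, a modulator of cAMP-responsive transcription, at 114 CPM in HFD_EXE, 31.7 CPM in HFD_sed and 16.1 CPM in S, the AP-1 repressor gene Jdp2, at 247 CPM in HFD_EXE, 97.3 CPM in HFD_sed and 44.6 CPM in S, and Cystm1, at 85 CPM in HFD_EXE, 34.4 CPM in HFD_sed and 14.4 CPM in S. HFD_sed lay between the other libraries for each of these. Jdp2 had a log2 ratio of 2.47 (95% interval 2.30 to 2.64). Lower in HFD_EXE were Zfp36l2, which promotes messenger RNA decay, at 165 CPM in HFD_EXE, 313 CPM in HFD_sed and 569.9 CPM in S, the homeobox gene Hhex, at 21.4 CPM in HFD_EXE, 54.1 CPM in HFD_sed and 80.1 CPM in S, and Pla2g7, which hydrolyses platelet-activating factor, at 199.6 CPM in HFD_EXE, 331 CPM in HFD_sed and 552 CPM in S. Ccl2, the monocyte chemoattractant, was at 17.7 CPM in HFD_EXE, 63.4 CPM in HFD_sed and 85.3 CPM in S, a log2 ratio of −2.27 (95% interval −2.77 to −1.81). Each of these genes had S as the highest library. Slc1a2, Cxcl13, Hpx and 7SK were named too.

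Fatty acid genes had 5 higher and 3 lower of 20 in HFD_EXE against HFD_sed (median log2 ratio 0.15), and 5 higher and 4 lower of 21 in HFD_sed against S (median −0.10). Pdk4, the kinase that turns glucose oxidation down, was at 12.3 CPM in HFD_EXE, 1.64 CPM in HFD_sed and 2.98 CPM in S, and the monoglyceride lipase gene Mgll at 36.8 CPM in HFD_EXE, 11.5 CPM in HFD_sed and 18.1 CPM in S. Acsl1, which activates fatty acids, was at 40.9 CPM in HFD_EXE, 37.2 CPM in HFD_sed and 86.2 CPM in S, with S highest. Of 15 genes of cholesterol efflux and LXR targets, 2 were higher and 0 lower in HFD_EXE than in HFD_sed (median −0.03), beside 7.95% higher and 6.35% lower of all measured genes. They were the exporter gene Abca1 at 878 CPM in HFD_EXE, 426 CPM in HFD_sed and 544 CPM in S and Mylip, which degrades the low density lipoprotein receptor, at 304 CPM in HFD_EXE, 198 CPM in HFD_sed and 159 CPM in S. Glycolysis and hypoxia genes had 7 of 17 higher and 0 lower in HFD_sed than in S (median 0.42), with the glycolytic enzyme genes Pgk1 at 164 CPM in HFD_EXE, 189 CPM in HFD_sed and 94.2 CPM in S and Gapdh at 254 CPM in HFD_EXE, 347 CPM in HFD_sed and 206 CPM in S.

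Antioxidant genes controlled by NRF2 were higher in HFD_EXE than in S, 7 of 13 higher and 0 lower (median log2 ratio 0.60). HFD_EXE against HFD_sed gave 4 higher and 1 lower of 12 (median 0.27), and HFD_sed against S 3 higher and 0 lower of 13 (median 0.14). Srxn1, sulfiredoxin, was at 93.2 CPM in HFD_EXE, 30.6 CPM in HFD_sed and 24.3 CPM in S, and Txnrd1, thioredoxin reductase, at 506 CPM in HFD_EXE, 321 CPM in HFD_sed and 276 CPM in S. Slc7a11, the cystine transporter, went against the median of HFD_EXE over HFD_sed, at 6.36 CPM in HFD_EXE, 26.2 CPM in HFD_sed and 1.64 CPM in S. Its level rested on few cells. In HFD_sed its 48 UMIs lay in 10 of 249 members, and in HFD_EXE 1 of 5 members held 10 of 14. Iron and haem genes had 0 higher and 3 lower of 17 in HFD_EXE against HFD_sed (median −0.17), ferroportin among them. Hmox1, the haem oxygenase that opens the haem ring, was at 2789 CPM in HFD_EXE, 2617 CPM in HFD_sed and 1519 CPM in S, and Fth1, the heavy chain of ferritin, at 7409 CPM in HFD_EXE, 9980.2 CPM in HFD_sed and 5272 CPM in S. Both were lowest in S.

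Of 11 genes of antigen presentation by MHC class II, summed over members, 1 was higher and 5 lower in HFD_EXE than in S (median log2 ratio −0.47). HFD_sed against S gave 0 calls in either direction of 11 measured (median −0.40), and HFD_EXE against HFD_sed gave 1 higher and 1 lower of 11. The median member gave another order, with these genes holding 0.836% of its UMIs in HFD_EXE, 0.710% in HFD_sed and 1.43% in S. The 10 members richest in H2-Aa, a class II chain, held 14.0% of its UMIs in HFD_EXE, 23.4% in HFD_sed and 3.67% in S. Cd74, the invariant chain, was at 4214 CPM in HFD_EXE, 5134 CPM in HFD_sed and 7143 CPM in S, and Ciita, the transactivator of the class, at 10 CPM in HFD_EXE, 42.1 CPM in HFD_sed and 49.5 CPM in S. Cd80, a costimulatory ligand, went the other way, at 67.7 CPM in HFD_EXE, 35 CPM in HFD_sed and 24.6 CPM in S. Immediate early genes, which dissociation can also induce, had 0 higher and 8 lower of 14 in HFD_EXE against S (median −0.66) and 0 higher and 6 lower of 14 in HFD_EXE against HFD_sed (median −0.36). Fos was at 908 CPM in HFD_EXE, 1416 CPM in HFD_sed and 1437 CPM in S, and Jun at 440.5 CPM in HFD_EXE, 705 CPM in HFD_sed and 938 CPM in S.

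Cell cycle genes were lower in HFD_sed than in S in 8 of 14 measured genes and higher in 2 (median log2 ratio −1.44). The proliferation marker gene Mki67 was at 19.1 CPM in HFD_EXE, 8.75 CPM in HFD_sed and 29.4 CPM in S. Members holding a UMI of it were 4.20% in HFD_EXE (15 cells), 5.62% in HFD_sed (14 cells) and 12.4% in S (157 cells). By this share HFD_EXE lay below HFD_sed, against the order of the levels. With each member thinned as for Cytip, the shares were 1.12%, 0.402% and 3.49% in the same order of libraries. The 10 richest members held 88.1% of Mki67 UMIs in HFD_EXE, 75% in HFD_sed and 49.7% in S. Top2a, a topoisomerase of dividing cells, was at 14.5 CPM in HFD_EXE, 3.28 CPM in HFD_sed and 18.4 CPM in S. It was found in 7 members of HFD_EXE, 5 of HFD_sed and 51 of S. In HFD_EXE, 1 member held 22 of its 32 UMIs, so that level describes very few cells. The replication helicase genes Mcm5 and Mcm6 went against the median, at 12 CPM in HFD_sed and 4.55 CPM in S for Mcm5 and at 15.9 CPM in HFD_sed and 7.31 CPM in S for Mcm6. Without the members holding a UMI of Cx3cr1, Ccr2, Mmp12 or Mmp13 the median was −0.26, nearer to 0 than over all members. Il10, an anti-inflammatory cytokine on the list of alternative activation, was at 140.0 CPM in HFD_EXE, 49.8 CPM in HFD_sed and 26.6 CPM in S, with a log2 ratio of 1.49 (95% interval 1.15 to 1.85) for HFD_EXE over HFD_sed. Interferon response genes had 4 higher and 0 lower of 20 in HFD_sed against S (median 0.31), and 1 higher and 2 lower in HFD_EXE against HFD_sed (median 0.00).

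Timd4 positive and Timd4 negative Kupffer cells of the same library could be compared with replication, over 3 libraries that differ in condition. The chemokine receptor gene Cx3cr1, a marker of monocyte-derived and capsule macrophages, fell in Timd4 positive cells. It was at 7.73, 20.8 and 5.67 CPM in Timd4 positive cells of HFD_EXE, HFD_sed and S, against 111, 169 and 181 CPM in Timd4 negative cells of the same libraries, and the 2 classes did not overlap. The log2 ratio was −4.07 ± 0.36 (SE, n = 3 libraries), with an adjusted p of 0.0208 in edgeR's quasi-likelihood test on summed counts with the library as a block. This SE, like those of the genes below, was derived from the F statistic of the test and is not the spread of the 3 library ratios. Cx3cr1 was the one call among 9532 tested genes, so that 0% of genes were called higher and 0.0105% lower. At an unadjusted p under 0.05 the same edgeR test gave 375 higher and 598 lower genes. With 13 higher and 21 lower, DESeq2 called more genes, and with each cell thinned to 2000 UMIs edgeR called 15 higher and 45 lower. Cx3cr1 lost its call without HFD_EXE, where the adjusted p in edgeR was 0.163, with Timd4 asked at 2 or more UMIs (0.0691) and without the library block (0.198). Over its 11 alternatives the adjusted p, from edgeR or DESeq2, ran from 3.5e-48 to 0.198, with the log2 ratio below 0 in each. Without HFD_sed, edgeR called 3 higher and 155 lower.

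Kupffer identity genes had positive ratios as a group. Of 21 tested, 21 had a log2 ratio above 0, and 17 of them in each of the 3 libraries, with a median of 0.69, while 4668 of all 9532 tested genes were above 0 and the median was −0.01. No identity gene passed the test. Cd163 was at 1124, 665 and 1383 CPM in Timd4 positive cells of HFD_EXE, HFD_sed and S, against 803, 127 and 352 CPM in Timd4 negative cells of the same libraries, with a log2 ratio of 1.61 ± 0.33 (SE, n = 3 libraries) and an adjusted p of 0.201 in edgeR. Fcna was at 1966, 1089 and 1954 CPM in Timd4 positive cells of HFD_EXE, HFD_sed and S, against 1384, 400.4 and 476 CPM in Timd4 negative cells of the same libraries, and Cd5l at 6726, 6637 and 6840.1 CPM in Timd4 positive cells of HFD_EXE, HFD_sed and S, against 5411, 4544 and 2006 CPM in Timd4 negative cells of the same libraries. Both were higher in Timd4 positive cells of each library by level. LXR targets had 13 of 15 above 0 (median 0.39), lysosome genes 16 of 18 (median 0.32) and Kupffer transcription factors 17 of 22 (median 0.20). Fewer were above 0 in each of the 3 libraries: 7 LXR targets, 10 lysosome genes and 6 of the transcription factor list. In that last list 3 genes were below 0 in each library. Of all 9532 tested genes, 1782 were above 0 in each library and 1272 below.

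Recently recruited macrophage genes had ratios below 0 in 13 of 13 tested genes (median −2.04), and MHC class II genes in 8 of 11 (median −0.53). In each of the 3 libraries, 6 recruited macrophage genes and 6 class II genes were below 0. The monocyte chemokine receptor gene Ccr2 was at 9.09, 24.6 and 18.1 CPM in Timd4 positive cells of HFD_EXE, HFD_sed and S, against 107, 58.5 and 364 CPM in Timd4 negative cells of the same libraries, with a log2 ratio of −3.22 ± 0.53 (SE, n = 3 libraries) and an adjusted p of 0.161 in edgeR. The class II gene H2-Ab1 was at 1605, 1807 and 2558 CPM in Timd4 positive cells of HFD_EXE, HFD_sed and S, against 1905, 4510.3 and 3965 CPM in Timd4 negative cells of the same libraries. Ccr2 and H2-Ab1 were thus lower in Timd4 positive cells of each library by level, and H2-Ab1 stood farthest apart in HFD_sed. Sterol synthesis genes were below 0 in 8 of 9 (median −0.94), 5 of them in each library. Markers of other cells also had ratios mostly below 0, hepatocyte markers in 21 of 22 (median −1.07) and monocyte markers in 8 of 8 (median −2.67). In each library, 9 hepatocyte and 3 monocyte markers were below 0. The hepatocyte sum was 2076, 1178 and 3938 CPM in Timd4 positive cells of HFD_EXE, HFD_sed and S, against 2454, 1088 and 11925 CPM in Timd4 negative cells of the same libraries, so it was not lower in HFD_sed. Timd4 positive cells were also deeper, with median UMIs of 5304, 6698 and 10008.5 against 2940, 6416 and 4419 in the same order of libraries.

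For Marco the direction turned with the library. It was at 658, 1772 and 772 CPM in Timd4 positive cells of HFD_EXE, HFD_sed and S, against 885, 296 and 460.2 CPM in Timd4 negative cells of the same libraries. The log2 ratio of Timd4 positive over Timd4 negative cells was −0.43 (95% interval −0.62 to −0.23) in HFD_EXE, 2.58 (2.43 to 2.74) in HFD_sed and 0.75 (0.62 to 0.87) in S, with counting error only. The high Marco level of HFD_sed was that of its Timd4 positive cells, and its Timd4 negative cells had the lowest level of the 6 sums. Lpl was at 1878, 3410.0 and 1277 CPM in Timd4 positive cells of HFD_EXE, HFD_sed and S, against 2079, 2388 and 602 CPM in Timd4 negative cells of the same libraries, and the higher level of Cytip in HFD_EXE was found in both classes, at 626, 109 and 39.2 CPM in Timd4 positive cells of HFD_EXE, HFD_sed and S, against 621, 114 and 158 CPM in Timd4 negative cells of the same libraries.

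**Figure D5:**
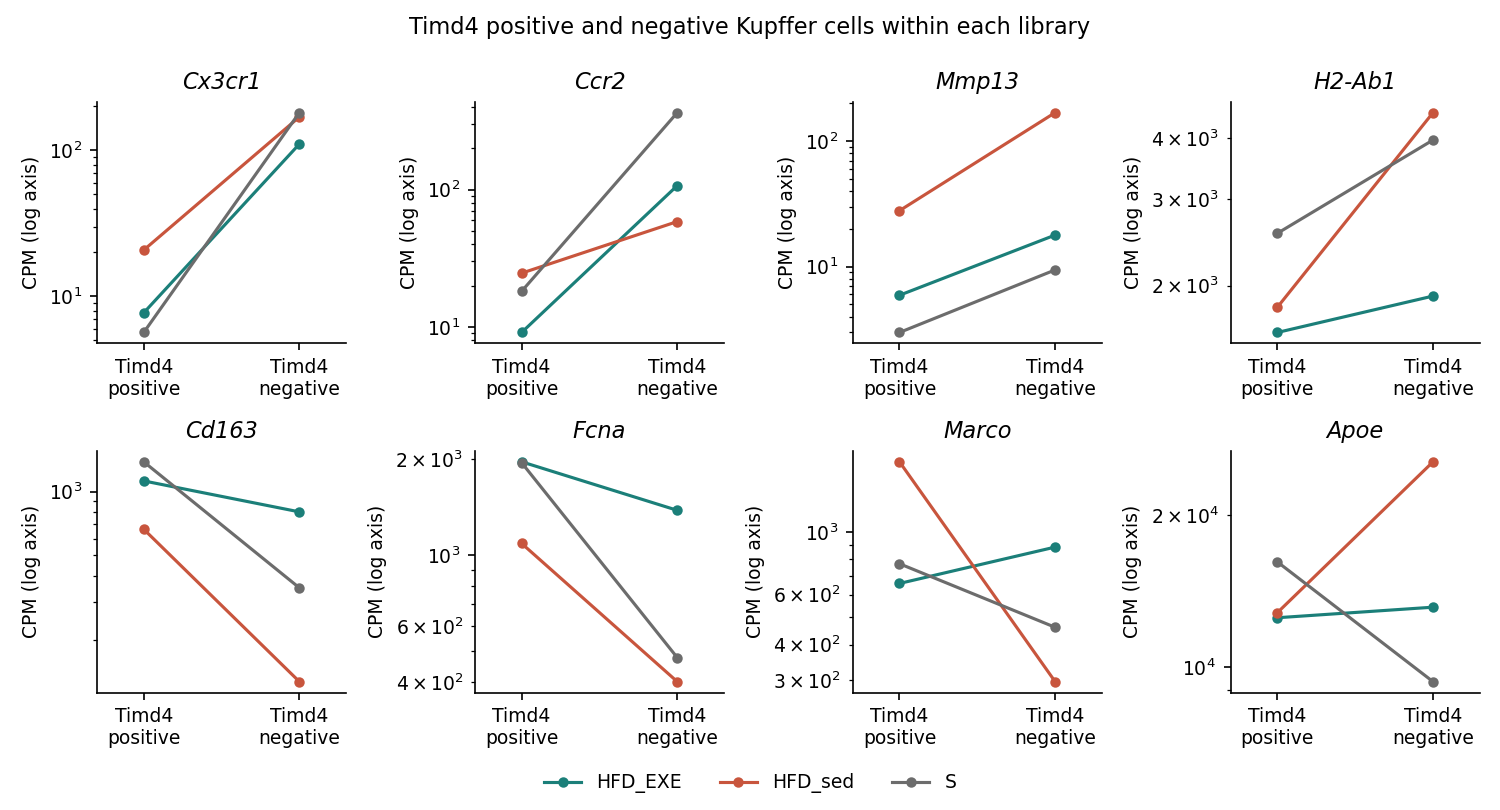
Summed levels in CPM (log axis) of 8 genes in Timd4 positive and Timd4 negative Kupffer cells, with a line joining the classes of 1 library, for HFD_EXE, HFD_sed and S. Cx3cr1, Ccr2, Mmp13 and H2-Ab1 are lower and Cd163 and Fcna higher in the Timd4 positive cells of each library, while Marco and Apoe turn direction between libraries.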

How the data were processed

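Droplet-based 3′ single-cell RNA sequencing (10x Genomics, version 3 kit) had been applied to dissociated liver non-parenchymal cells, per the labels' protocols. The tool and build that the submitters' processing notes name are Cell Ranger 6.1.2 and GRCm39. Its settings are not in the sources used. As deposited, a matrix gives the count of UMIs for each gene in each barcode, not normalized and at least 500 UMIs per barcode. The rest was computed here in Python 3.11.15 (numpy 2.4.6, pandas 2.3.3, scipy 1.17.1) and R 4.3.3. Counts of the 55357 identifiers were summed over 54456 symbols. The members and the gene lists (27 pathway and 13 marker lists) were chosen with earlier results of these data known.

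Members' counts were summed per library and divided by their total, giving CPM with exact Poisson 95% intervals, and log2 ratios with exact conditional binomial intervals. Shares carry exact Clopper-Pearson intervals. These bounds describe counting error alone. Cells were not taken as replicates, so with 1 library a group a call between libraries is a rule of size, not a test. The naming rule passed over genes of mitochondria, ribosomal proteins, haemoglobins, antigen receptors, sex chromosomes (Xist and Y-linked) and the hepatocyte list, unnamed models and the genes of the member rule. Lists could give up to 5 members with the largest bound, besides those against the median and the genes of the identity, transcription factor and phosphatidylserine lists. Genes of other lists were chosen after their values were seen where they fall outside this. T-like cells held at least 2 Cd3e UMIs and no Cd79a or Csf1r, and endothelial-like cells at least 2 Ptprb and 1 Stab2 UMIs and no Csf1r or Cd3e.

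Timd4 positive and Timd4 negative sums were compared with the quasi-likelihood test of edgeR 4.0.16 (TMM scaling, filterByExpr, library as a block, Benjamini-Hochberg adjustment over all genes, called at 0.05), with DESeq2 1.42.0 as an alternative. The steps were also run on simulated counts with a fixed dispersion and the same fold in each library. That setting lacks contrasts that differ between libraries, as those of Marco and Apoe do, so it checks the steps and not the calls. The genes of the member rule were left out of this test. The SE of a log2 ratio was its absolute value divided by the square root of the test's F statistic. A Timd4 negative cell can hold Timd4 RNA that was missed. Doublets were not removed. Scrublet in Scanpy 1.11.5 was run as an alternative. Its automatic threshold marked 0 cells of HFD_EXE, so the mean of the other libraries' thresholds, 0.219, was used after this was seen, which marked 2 members of HFD_EXE, 3 of HFD_sed and 19 of S. Figures were drawn with matplotlib 3.10.9. Other alternatives were thinning to 2000 UMIs, a minimum of 5000 UMIs, stricter Timd4 and Clec4f minimums, leaving out members rich in hepatocyte, neutrophil or recruited-macrophage transcripts, equal weight for each cell, other scaling and other minimums. One gene of the transcription factor list is not reported here by name.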

Additional observations from a re-analysis of the deposited data

Results flagged for a closer look

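The apolipoprotein E gene Apoe turned direction between libraries in the comparison of Timd4 positive with Timd4 negative Kupffer cells. It was at 12534, 12827 and 16166 CPM in Timd4 positive cells of HFD_EXE, HFD_sed and S, against 13151, 25511 and 9365 CPM in Timd4 negative cells. The log2 ratio was 0.79 (95% interval 0.76 to 0.82) in S and −0.99 (−1.02 to −0.97) in HFD_sed, a difference of 1.78 on the log2 scale between S and HFD_sed. It was −0.07 (−0.12 to −0.02) in HFD_EXE. Each library gave 1 value, so the difference was not tested.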

How the results depend on the processing

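Of the values for single named genes between libraries, 662 kept direction and call under the alternatives, 2 kept direction without the call, and 6 reversed, all of 7SK. For HFD_sed over S, 7SK was at 0.221 with Timd4 asked at 2 or more UMIs, 0.141 without members over 1% hepatocyte UMIs and 0.639 without members holding a UMI of Cx3cr1, Ccr2, Mmp12 or Mmp13. For HFD_EXE over S these log2 ratios were 0.21, 0.315 and 0.452, and 1 cell of S held most of its UMIs. List medians moved by under 0.3 in 939 cases and by more in 33. Genes higher and lower numbered 446 and 325 after thinning to 2000 UMIs in HFD_EXE over HFD_sed, 534 and 482 in HFD_sed over S, and 651 lower in HFD_EXE over S. With each cell weighted equally they numbered 1281 and 1117, 1400 and 2407, and 2433 lower. At a ratio of at least 2 they numbered 444 and 313, 369 and 536, and 545 and 602. With each cell weighted equally no interval was used, so a gene of at least 20 UMIs was called on its ratio alone. Those counts therefore follow a looser rule than the others. Thinning left fewer genes measured, 6847 in HFD_EXE over HFD_sed against 9793 as counted. A larger ratio calls fewer genes by its nature. Any further cause was not tested.

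The Timd4 positive share in HFD_EXE, HFD_sed and S was 57.5%, 41.1% and 62.5% when thinned, 93.9%, 62.5% and 93.8% at 5000 UMIs, 55.3%, 39.0% and 65.2% with both, 60%, 47.5% and 78.6% at 2 or more Timd4 UMIs, and 91.6% in S at 4 or more Clec4f UMIs. The member share was 3.56%, 3.51% and 16.2% at 5000 UMIs, 3.64%, 1.80% and 12.0% when thinned, 2.94%, 2.03% and 11.7% at 2 or more Timd4 UMIs, 8.19%, 3.14% and 20.7% among cells with Ptprc, and 12.3% in S from 500 UMIs. In Timd4 positive over negative cells, genes higher and lower in edgeR were 15 and 45 when thinned, 4 and 3 at 5000 UMIs, 5 and 5 with both, 139 and 349 without a filter on low counts, and 0 and 0 at 2 or more Timd4 UMIs or without the library block; DESeq2 gave 13 and 21. Leaving out 1 library gave 0 to 3 higher and 0 to 155 lower. Cx3cr1 kept its call in 8 of 11 alternatives, with log2 ratios from −4.57 to −3.32. No paired analysis was possible because each group has 1 library and the replicate numbers of the 3 libraries analysed are not shared; the block used here is the library. Depth limits genes under 20 UMIs over both libraries, which were not measured.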
